A study of Mus musculus with 64 samples.

Results

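Haloperidol, an antipsychotic that blocks dopamine D2 receptors, was compared with saline in the nucleus accumbens (NAc) of male C57BL/6N mice aged 8 to 10 weeks. The comparison took 12 of the 64 RNA-seq libraries of the study, chosen by tissue and treatment: 4 after haloperidol and 8 after saline, which the sample titles divide into set I with 4 libraries and set II with 4. Haloperidol was injected once into the peritoneum at 1 mg/kg in saline with a drop of HCl, the control mice received saline, and tissue was taken 2 h later. Whether the control saline held HCl was not given in the sources used here, so drug and acid cannot be told apart. The labels do not state that each library came from 1 mouse, so p-values measure the spread between these libraries, which may be partly technical.

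The NAc is the ventral part of the striatum, and most of its neurons are GABAergic medium spiny neurons. One class of these cells carries D2 receptors, adenosine receptors and enkephalin, and the other carries D1 receptors, dynorphin and substance P. D2 receptors lower cAMP through Gi/o proteins, so a D2 antagonist lifts this brake in the D2 class. Calcium and cAMP signals then switch on immediate-early genes, which need no new protein for their transcription and encode transcription factors (Fos, Jun, Egr and Nr4a families), synaptic proteins such as Arc and phosphatases that end the signal.

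Gene levels were FPKM, the deposited abundance scaled to transcript length and library size, summed over the transcripts of a gene. Each difference below is a mean difference in log2(FPKM + 1) ± SE from limma, with Benjamini-Hochberg adjusted p-values over all genes with a mean FPKM of at least 0.1, and it understates the ratio of genes with a low level. A gene was called when its adjusted p was under 0.05. The dissected tissue carried the markers of the striatum: summed FPKM of 8 medium spiny neuron genes ranged from 451 to 514 after haloperidol, against 88.6 to 95.3 in the prefrontal cortex (PFCx) of haloperidol-treated mice. No marker of any cell type examined in it was at 0 in all libraries of a group.

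The saline sets differed in how many genes they detected, and haloperidol stood with set I. Between 28586 and 29948 genes were above 0 in the haloperidol and set I libraries, and between 43765 and 44399 in set II. A total of 6467 genes were at 0 in every haloperidol and set I library and above 0 in every set II library. The 9004 transcripts with this pattern had a median of 0.063 FPKM in set II, so their levels there were low. The first principal component held 44.4% of the variance of 15091 genes and placed set II (22.95 to 37.52) apart from haloperidol and set I (-23.61 to -6.5). The 6 cortical glutamatergic markers summed to 20.8 to 43.3 FPKM in set II, 48.7 to 66.6 in set I and 59.3 to 79.2 after haloperidol, and 5 red cell genes to 40.2 to 71.1, 74.1 to 102 and 60.3 to 134. Summed levels of 6 astrocyte markers (279 to 306 FPKM after haloperidol, 265 to 288 in set I, 233 to 253 in set II) and 6 oligodendrocyte markers (711 to 782, 674 to 773 and 565 to 627) were likewise lowest in set II, and no gene of the cell type marker lists was called by limma in either comparison. The part of these differences in the results against all saline was not tested. Each comparison was therefore made against set I and against all 8 saline libraries.

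After haloperidol a small group of genes was higher and very few were lower. Against set I, 16 of 25733 genes were higher (0.0622% of those tested) and 1 was lower (0.00389%). Against all saline, 65 of 27714 were higher (0.235%) and 2 were lower (0.00722%). An unadjusted p under 0.05 was reached by 1402 genes against set I and by 3299 against all saline. A total of 15 genes were called in both comparisons, all of them higher, and 10 of these 15 encode transcription factors of the immediate-early class: Fosb, Fos, Junb, Fosl2, Egr1, Egr2, Egr3, Egr4, Nr4a1 and Nr4a3. The other 5 were Arc and Inhba, which encode a synaptic protein and a secreted factor, the phosphatases Dusp1 and Dusp5, and the insulin signalling adaptor Irs2.

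**Figure D1:**
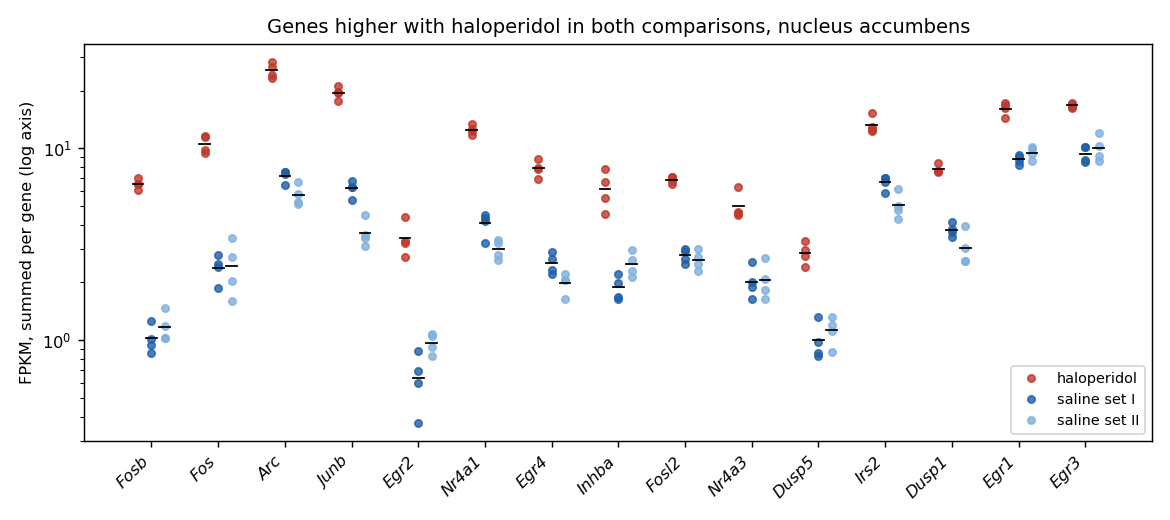
FPKM of the 15 genes called higher after haloperidol in both comparisons (log scale), with 1 point per library for haloperidol, saline set I and saline set II and a bar at each group mean. In every gene the 4 haloperidol points sit above the 8 saline points.

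The sequence around the start of 4 of these genes is shown here. Between them, though not each on its own, they hold both forms of the cAMP response element and the EGR motif described next. Each line holds the 250 bases before and 50 bases after the annotated start (RefSeq, GRCm38.p6), written in the direction of transcription. Fos is at chr12:85473640-85473939 on the plus strand, Fosb at chr7:19309996-19310295 on the minus strand, Nr4a1 at chr15:101266596-101266895 on the plus strand and Dusp1 at chr17:26508423-26508722 on the minus strand. Capitals mark matches on either strand to the cAMP response element TGACGTCA, to its shorter form TGACG (of which each full element holds a pair) or to the EGR motif GCGNGGGCG.
Fos: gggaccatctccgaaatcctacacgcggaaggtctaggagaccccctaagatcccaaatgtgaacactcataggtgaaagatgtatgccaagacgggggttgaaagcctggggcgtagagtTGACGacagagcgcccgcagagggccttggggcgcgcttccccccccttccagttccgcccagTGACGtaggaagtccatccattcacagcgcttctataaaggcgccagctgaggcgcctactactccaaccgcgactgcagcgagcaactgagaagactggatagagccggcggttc
Fosb: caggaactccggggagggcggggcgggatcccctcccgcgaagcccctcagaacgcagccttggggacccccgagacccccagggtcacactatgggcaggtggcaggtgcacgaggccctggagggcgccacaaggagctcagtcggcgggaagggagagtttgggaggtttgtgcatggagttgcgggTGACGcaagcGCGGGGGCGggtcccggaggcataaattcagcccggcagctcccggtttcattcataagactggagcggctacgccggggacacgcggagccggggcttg
Nr4a1: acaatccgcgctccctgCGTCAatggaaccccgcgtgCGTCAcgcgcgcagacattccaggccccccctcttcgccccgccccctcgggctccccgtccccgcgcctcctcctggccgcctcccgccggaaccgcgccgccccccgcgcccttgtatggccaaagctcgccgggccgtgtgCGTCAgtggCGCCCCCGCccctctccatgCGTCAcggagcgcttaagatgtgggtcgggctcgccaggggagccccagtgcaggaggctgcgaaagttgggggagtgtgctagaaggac
Dusp1: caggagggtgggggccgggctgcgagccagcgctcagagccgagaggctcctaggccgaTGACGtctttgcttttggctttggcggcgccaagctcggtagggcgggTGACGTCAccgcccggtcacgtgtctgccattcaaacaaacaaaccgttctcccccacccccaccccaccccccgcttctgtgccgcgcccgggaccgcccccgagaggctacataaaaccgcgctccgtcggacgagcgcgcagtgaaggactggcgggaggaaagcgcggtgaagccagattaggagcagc
The table of promoters held 12 of the 15 genes, without Arc, Egr1 and Egr3. The short form TGACG was present in 9 of the 12 windows (Dusp1, Dusp5, Egr2, Egr4, Fos, Fosb, Junb, Nr4a1 and Nr4a3), and 6228 of the 27025 windows of all genes held it. The full element was present in Dusp1 alone, against 2.03% of all windows. The EGR motif was found in Fosb, Fosl2 and Nr4a1 (6.27% of all windows), and the CArG box in Dusp5 and Egr2 (1.81%). No window of the 12 held the AP-1 motif TGANTCA, which 8.97% of all windows held. These are matches of letters in 1 window per gene and were not tested as binding sites.

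Fosb and Fos, which pair with Jun proteins to form AP-1, had the largest differences of the 15 from set I. Fosb (chr7:19302696-19310051, minus strand) was at 6.07, 6.50, 7.02 and 6.53 FPKM in the haloperidol libraries. It was at 0.947, 1.26, 1.02 and 0.863 in set I, and at 1.19, 1.03, 1.02 and 1.47 in set II. The groups did not overlap, and the level after haloperidol was 6.39 times that of set I (difference 1.90 ± 0.09, limma adjusted p = 8.75e-05) and 5.94 times that of all saline (1.85 ± 0.08, adjusted p = 1.25e-07). The tables list 1 Fosb transcript, so its short spliced form was not measured on its own.

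Fos (chr12) was at 9.51, 9.78, 11.6 and 11.5 FPKM after haloperidol, at 2.79, 2.51, 1.88 and 2.40 in set I and between 1.59 and 3.40 in set II. It was 4.43 times as high as in set I (1.78 ± 0.11, limma adjusted p = 0.000316), and all 4 libraries lay above all 8 saline libraries. Junb, a Jun protein with partners in the Fos family, was at 17.6, 21.1, 19.3 and 19.8 FPKM, against 6.31, 5.41, 6.30 and 6.74 in set I and 3.10, 3.41, 3.55 and 4.502 in set II. Set II lay below set I without overlap for Junb, and the difference was 1.51 ± 0.09 against set I (adjusted p = 0.000316) and 1.83 ± 0.17 against all saline (adjusted p = 0.000312). Fosl2, which encodes Fra-2, was at 6.49, 7.08, 6.73 and 7.13 FPKM, 2.48 times the mean of set I, whose libraries lay between 2.49 and 2.99 (1.06 ± 0.08, adjusted p = 0.000936).

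The Egr genes encode zinc finger factors. Egr2 started from the lowest level, with 0.598, 0.880, 0.370 and 0.687 FPKM in set I, and was at 3.30, 3.20, 2.71 and 4.38 after haloperidol, a ratio of 5.36 (1.42 ± 0.14, limma adjusted p = 0.00615). Egr4 was at 6.93, 7.84, 8.85 and 7.88 FPKM against 2.2 to 2.89 in set I, a ratio of 3.13 (1.34 ± 0.10, adjusted p = 0.000936). Egr1 and Egr3 were the most abundant of the family in saline and changed least. Egr1 was at 14.3, 16.2, 17.2 and 16.8 FPKM against 8.61, 9.26, 8.15 and 9.06 in set I, a ratio of 1.84 (0.81 ± 0.09, adjusted p = 0.0128). Egr3 was at 16.5, 16.2, 17.3 and 17.1 FPKM against 8.46 to 10.2 in set I and 8.63 to 11.97 in set II, a ratio of 1.79 to set I (0.78 ± 0.09, adjusted p = 0.0151). The groups did not overlap for any of these 4 genes.

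Of the Nr4a orphan nuclear receptors, Nr4a1 and Nr4a3 rose. Nr4a1 (chr15:101266846-101274795) was at 12.6, 11.7, 12.3 and 13.5 FPKM after haloperidol, at 4.52, 3.19, 4.20 and 4.34 in set I and between 2.62 and 3.32 in set II (ratio to set I 3.08, difference 1.42 ± 0.10, limma adjusted p = 0.000936). Nr4a3 was at 4.65, 6.30, 4.58 and 4.51 FPKM against 1.90, 2.54, 1.65 and 2.00 in set I (ratio 2.48, difference 0.99 ± 0.13, adjusted p = 0.0328). Replicate 2 was the highest of both groups for Nr4a3. The third member, Nr4a2, ranged from 4.26 to 6.19 FPKM after haloperidol and from 3.46 to 5.61 in set I, overlapped and was not called (0.22 ± 0.15, adjusted p = 0.953).

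Outside the transcription factors, Arc, whose product controls AMPA receptor traffic at synapses, was the most abundant of the 15 after haloperidol. It was at 26.6, 23.4, 24.2 and 28.2 FPKM, at 7.49, 6.44, 7.32 and 7.50 in set I and at 6.68, 5.25, 5.12 and 5.81 in set II. Every haloperidol library was far above the highest saline library (ratio of means to set I 3.56, difference 1.70 ± 0.09, limma adjusted p = 0.000157). Inhba, which encodes the beta A subunit of activin, was at 6.65, 4.55, 5.50 and 7.83 FPKM, against 2.00, 1.68, 1.65 and 2.21 in set I and 2.15 to 2.94 in set II (1.29 ± 0.15 against set I, adjusted p = 0.0171). Its haloperidol libraries were more spread than those of Arc, and none reached down to a saline library.

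The dual-specificity phosphatases Dusp1 and Dusp5 remove phosphate from MAP kinases. Dusp1 was at 7.62, 7.51, 7.62 and 8.43 FPKM after haloperidol and at 4.13, 3.45, 3.81 and 3.66 in set I, a ratio of 2.07 (0.89 ± 0.08, limma adjusted p = 0.0043). Dusp5 was at 3.30, 2.42, 2.76 and 2.94 FPKM against 1.33, 0.831, 0.862 and 0.979 (0.95 ± 0.11, adjusted p = 0.0173). Irs2 was at 12.98, 12.3, 15.3 and 12.5 FPKM against 7.04, 6.99, 6.69 and 5.87, a ratio of 1.99 (0.90 ± 0.10, adjusted p = 0.0131). For all 3 genes the haloperidol libraries lay above every saline library.

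All 15 genes stayed called against all saline when any of the 12 libraries was left out. Against set I, 9 of them (Arc, Dusp1, Egr2, Egr4, Fos, Fosb, Fosl2, Junb and Nr4a1) stayed called in 8 of 8 such fits, whereas Egr1 and Irs2 did in 3, Dusp5, Egr3 and Inhba in 2 and Nr4a3 in 1, with adjusted p-values up to 0.139. All 6 lost the call without set I replicate 3 and without set I replicate 4. Whether replicate numbers pair haloperidol with set I depended on the filter. Deviations of same-numbered libraries correlated over 0.1 in 2 of 4 pairs at a mean FPKM of at least 0.1 and in all 4 at a mean of at least 1. With the replicate as a block, 11 of the 15 genes were called against set I, and Dusp1 (adjusted p = 0.0822), Egr1 (0.131), Egr3 (0.201) and Irs2 (0.112) were not, whereas all 15 were called against all saline. The block gave 11 genes in all against set I and 32 against all saline. Against all saline the block also pairs set II by number. Same-numbered haloperidol and set II libraries correlated at -0.016, 0.1289, 0.0284 and 0.0871 at a mean FPKM of at least 0.1.

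The larger set of saline libraries called 52 further genes, 50 of them higher. All 52 had an unadjusted limma p under 0.01 against set I, with adjusted p-values from 0.0858 to 0.613 there. In all 67 genes the haloperidol libraries did not overlap either saline set. Both comparisons share the haloperidol libraries and set I, so these counts describe the selected genes and are not separate tests. The median difference of the 50 was 0.62 against all saline and 0.54 against set I. As a measure of how often such separation occurred, 266 of 27714 genes (0.96%) had all 4 haloperidol libraries above all 8 saline libraries, and 193 (0.696%) had them below. The genes named next were picked from the 52 after their values were seen. Sik1, a salt-inducible kinase of the CREB pathway, was at 3.41, 3.39, 4.39 and 3.61 FPKM against 1.68, 1.77, 1.97 and 2.24 in set I and 1.36 to 1.72 in set II (0.80 ± 0.09 against all saline, limma adjusted p = 0.00168; 0.69 ± 0.10 against set I, adjusted p = 0.0862). Btg2, an antiproliferative early gene, was at 3.00, 2.98, 3.40 and 3.12 FPKM against 1.61 to 2.03 in set I (0.58 ± 0.08, adjusted p = 0.0858). Trmt1l, 1 of the 2 lower genes (the other was Gm43230, -0.55 ± 0.09, adjusted p = 0.0218), was at 3.50, 3.51, 3.95 and 3.40 FPKM against 4.32 to 5.06 in set I and 4.69 to 5.54 in set II (-0.37 ± 0.07 against all saline, adjusted p = 0.0464).

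A pair of genes was called against set I and not against all saline. Gm23169 was at 0.422, 0.480, 0.499 and 0.442 FPKM after haloperidol and listed at 0 in set I, but was at 0.384, 0, 0.0616 and 0.354 in set II (0.42 against all saline, limma adjusted p = 0.177). Mir3070b, a microRNA locus, was listed at 0 in the 4 haloperidol libraries, was between 0.453 and 0.697 FPKM in set I and was also listed at 0 in 2 of the 4 set II libraries (adjusted p = 0.324 against all saline). Set II overlapped the haloperidol libraries for Mir3070b, whereas for Gm23169 it reached 0.384 and stayed below the lowest haloperidol library.

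The lists of genes around this response were read by role. The background share of called genes (0.0622% higher against set I, 0.235% against all saline) applies to each list, and no member of any list was called lower. The list of 25 immediate-early transcription factors had a median difference of 0.42 against set I, while the median over all genes was -0.0002. Of the 25, 10 were called higher against set I and 12 against all saline (with Jun and Atf3 added), and 15 lay above all 8 saline libraries. Jun, the main Fos partner, was at 5.90 to 6.80 FPKM after haloperidol, 3.84 to 4.31 in set I and 2.80 to 3.09 in set II (0.53 ± 0.08 against set I, limma adjusted p = 0.107; 0.71 ± 0.11 against all saline, adjusted p = 0.013). Atf3 was at 0.649 to 0.890 FPKM against 0.136 to 0.340 in set I (0.52 ± 0.09, adjusted p = 0.22). Members of the same class that were not called in either comparison included Npas4, a neuronal factor induced by calcium, at 2.35 to 3.31 FPKM against 1.35 to 2.72 (0.42 ± 0.15, adjusted p = 0.84), and Fosl1 (0.01 ± 0.16, adjusted p = 0.997) and Klf6 (-0.09 ± 0.10, adjusted p = 0.97).

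Of 16 activity-induced synaptic and secreted effectors, Arc and Inhba were called in both comparisons, and Homer1, Plk3 and Trib1 against all saline. The median difference of the list was 0.34 against set I. Bdnf, the neurotrophin whose transcription follows calcium signals in cortical neurons, was at 0.486 to 0.842 FPKM after haloperidol and 0.631 to 1.08 in set I, and the groups overlapped (-0.08 ± 0.11, limma adjusted p = 0.977). Scg2 and Plk2, abundant in all libraries, lay above all 8 saline libraries without being called. Among 14 feedback inhibitors of MAP kinase and small GTPase signalling, the 5 called against all saline were all Dusp genes, namely Dusp1, Dusp4, Dusp5, Dusp6 and Dusp14, and the median was 0.13 against set I. Dusp6 was at 6.76 to 8.23 FPKM against 3.68 to 5.61 in set I (0.56 ± 0.12, adjusted p = 0.348; 0.72 ± 0.12 against all saline, adjusted p = 0.022). No Spry or Spred member was called, with differences from -0.06 (Spred2) to 0.14 (Spred3) against set I.

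**Figure D2:**
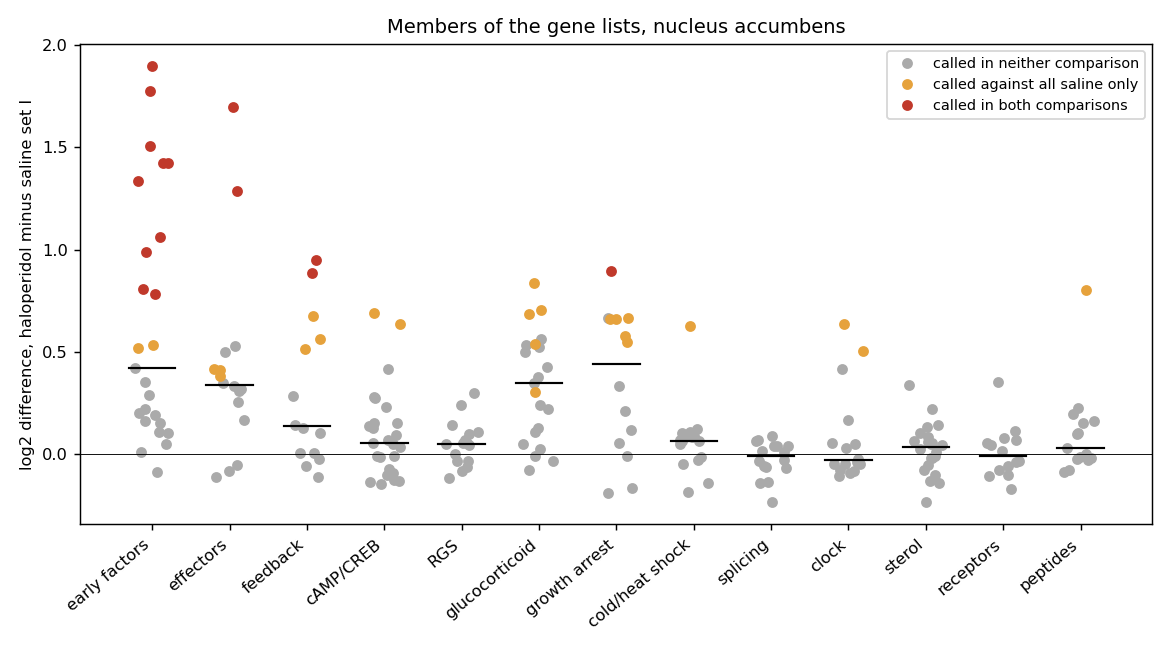
Difference in log2(FPKM + 1) between haloperidol and saline set I for each tested member of the gene lists, with 1 point per gene and a bar at the list median. Points are coloured by whether the gene was called in both comparisons, against all saline or in neither. The early transcription factors reach 1.90, and the receptors lie around a median of -0.01.

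Few genes of cAMP and CREB signalling were called. Sik1 and Per2 were called against all saline and none against set I (limma, 5 with an unadjusted p under 0.05), 4 of the 25 lay above all 8 saline libraries, and the median was 0.05 against set I. Crem, whose early form ICER follows cAMP, was at 3.35 to 4.32 FPKM against 2.74 to 4.72 in set I (0.07 ± 0.14, limma adjusted p = 0.987). Adcy5, Gnal and Pde10a, the adenylyl cyclase, G protein and phosphodiesterase of medium spiny neurons, had differences from set I of -0.01, -0.09 and -0.11. None of 16 RGS genes, which speed the turn-off of G proteins, was called by limma (1 with an unadjusted p under 0.05 against set I, 2 against all saline), and Rgs14 alone lay above all 8 saline libraries (0.30 ± 0.11, adjusted p = 0.856 against set I). Of 16 clock genes, Per2 and Bhlhe40 were called against all saline, and both are also early response genes. Per2 was at 6.50 to 9.90 FPKM against 4.37 to 5.58 in set I (0.64 ± 0.14, adjusted p = 0.383), and the median of the clock list was -0.03.

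Of 21 glucocorticoid-responsive genes tested, 5 were called against all saline (Sgk1, Cdkn1a, Zbtb16, Plin4 and Klf9) and none against set I, where the median was 0.35 and 12 had an unadjusted limma p under 0.05. A total of 10 of the 21 lay above all 8 saline libraries. Sgk1, a serum and glucocorticoid regulated kinase, was at 36.6, 36.9, 37.6 and 24.5 FPKM after haloperidol, against 16.1, 18.2, 21.6 and 17.6 in set I and 18.3 to 21.2 in set II. Replicate 4 was lower than the other 3 and still above every saline library (0.84 ± 0.15 against set I, limma adjusted p = 0.232; 0.79 ± 0.12 against all saline, adjusted p = 0.0125). Fkbp5, a cochaperone that responds to glucocorticoids, was at 6.41, 6.89, 7.44 and 6.96 FPKM against 5.28, 4.91, 5.48 and 4.78, did not overlap, and missed the threshold in both comparisons (0.37 ± 0.08, adjusted p = 0.375; 0.34 ± 0.06, adjusted p = 0.0519). Mt1 and Mt2, the metallothioneins, overlapped with set I (0.03 ± 0.11 and -0.08 ± 0.14). Among 14 growth arrest and early stress genes, Irs2 was called in both comparisons and Gadd45b, Btg2, Ier3, Tiparp and Csrnp1 against all saline. The median of this list was 0.44 against set I.

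Against set I, other lists stayed near the median of all genes. Against all saline the median was 0.11 for cold and heat shock genes, 0.02 for splicing regulators and 0.13 for sterol synthesis genes, and -0.02 over all genes. Of 16 cold and heat shock genes, Dnajb5 alone was called, against all saline (0.70 ± 0.11, limma adjusted p = 0.0224). It was at 20.7 to 26.4 FPKM compared with 12.3 to 16.7 in set I, where it was not called (0.62 ± 0.11, adjusted p = 0.245). The cold-induced Cirbp (14.6 to 21.8 FPKM against 16.7 to 18.3) and Rbm3 (12.015 to 14.7 against 11.3 to 14.5) overlapped with set I. No gene of 16 splicing regulators or 22 sterol synthesis genes was called (1 of each list had an unadjusted p under 0.05 against set I), and their medians against set I were -0.01 and 0.03.

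Receptors of dopamine, serotonin and noradrenaline include the targets of haloperidol. None of 14 tested receptor genes was called by limma, and 1 had an unadjusted p under 0.05 against set I, namely Drd3. Drd2, the main target, ranged from 11.9 to 15.1 FPKM after haloperidol and from 11.97 to 15.4 in set I (-0.08 ± 0.11, limma adjusted p = 0.977), and Drd1 from 27.3 to 33.1 and from 27.4 to 36.7 (-0.10 ± 0.11, adjusted p = 0.963). Drd3, a D2-like receptor of the ventral striatum, was at 1.88 to 2.19 FPKM against 1.24 to 1.42 in set I without overlap, but set II reached 2.13 and the difference was not called (0.35 ± 0.07, adjusted p = 0.368 against set I).

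Nts, which encodes neurotensin, was the 1 called gene of 15 tested neuropeptide genes. It was at 4.74, 6.22, 7.04 and 5.93 FPKM after haloperidol, at 2.48, 3.12, 3.80 and 2.64 in set I and at 2.82, 2.79, 2.74 and 3.20 in set II. No saline library reached the lowest haloperidol library (0.82 ± 0.10 against all saline, limma adjusted p = 0.00276; 0.80 ± 0.14 against set I, adjusted p = 0.195). The enkephalin precursor Penk, the most abundant of the list, ranged from 196 to 261 FPKM after haloperidol and from 209 to 251 in set I (-0.01 ± 0.11, adjusted p = 0.997). Pdyn, the dynorphin precursor (34.0 to 39.4 against 36.4 to 42.2), and Tac1, the substance P precursor (62.6 to 76.6 against 65.6 to 74.7), overlapped as well.

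Adora2a, an adenosine receptor of the D2 class, was at 18.3, 17.0, 19.8 and 19.2 FPKM after haloperidol and at 25.3, 22.4, 23.9 and 23.2 in set I. Those groups did not overlap, but set II ranged from 18.3 to 26.5 and the difference was not called (-0.34 ± 0.08 against set I, limma adjusted p = 0.531; -0.29 ± 0.09 against all saline, adjusted p = 0.29). Gpr6, another receptor of these cells, noted after its values were seen, was at 8.57, 9.61, 9.52 and 9.85 FPKM, below all 8 saline libraries (10.6 to 13.6), and missed the threshold too (-0.41 ± 0.08 against set I, adjusted p = 0.284). The summed FPKM of 5 markers of the D2 class was 237 to 310 after haloperidol and 257 to 305 in set I. Penk, at 196 to 261 after haloperidol, made up most of that sum. Of the 5, 1 had a difference from set I above 0, and their median was -0.08. An unadjusted limma p under 0.05 was reached by 2 of them, and by 1402 of all 25733 genes. The summed FPKM of 6 markers of the D1 class was 144.6 to 168.5 after haloperidol and 150.6 to 164.4 in set I. In tissue RNA, fewer cells of a type and less RNA per cell cannot be told apart.

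**Figure D3:**
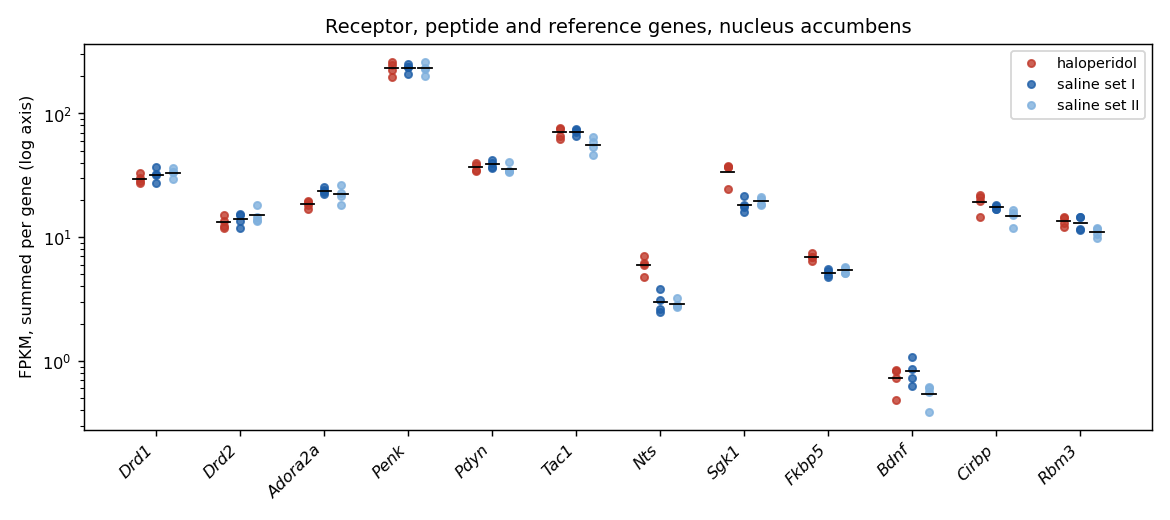
FPKM of 12 receptor, peptide and reference genes shown whatever their values (log scale), with 1 point per library for haloperidol, saline set I and saline set II and a bar at each group mean. Nts, Sgk1 and Fkbp5 have 4 haloperidol points above the saline points, whereas Drd1, Drd2, Penk, Pdyn and Tac1 overlap.

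Transcript by transcript, 11 of 66249 were higher against set I (0.0166%) and none was lower by limma, while 3203 had an unadjusted p under 0.05. Against all saline, 31 of 69432 were higher (0.0446%) and 3 were lower (0.00432%), of Tia1, Grm7 and Terf2. The 9 transcripts called in both comparisons belonged to 9 genes: Fosb, Fos, Junb, Nr4a1, Egr4, Fosl2, Homer1, Sgk1 and Inhba. For Fos, Fosl2, Homer1, Sgk1 and Inhba, 1 of the several transcripts tested was called. With the replicate as a block limma called no transcript against set I (3570 had an unadjusted p under 0.05, and the adjusted p of the 9 ran from 0.457 to 0.748), 12 were called against all saline, and Sgk1-201 (adjusted p = 0.0534) and Inhba-202 (0.0854) were not among these 12. Cufflinks divides reads between overlapping transcripts by a model, so these levels are estimates, and leaving out any 1 of the 8 libraries reduced the 11 calls against set I to between 1 and 5.

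Homer1 encodes a scaffold of the postsynaptic density, and its short activity-induced form ends within the gene and lacks the domain that links scaffolds. Homer1-204 (ENSMUST00000102752, chr13:93304495-93360462, 5 exons, 5713 bases) ends first of the 11 annotated transcripts, 44667 bases before the farthest end. It was at 13.5, 13.4, 12.03 and 14.8 FPKM after haloperidol, at 5.59, 6.15, 5.02 and 5.84 in set I and at 5.62, 6.51, 6.28 and 6.27 in set II. The haloperidol libraries were above every saline library (1.12 ± 0.11 against set I, limma adjusted p = 0.0363; 1.06 ± 0.08 against all saline, adjusted p = 0.00019). Its share of all Homer1 FPKM was 22.9% ± 2.03 (SD, n = 4) after haloperidol, 12.9% ± 1.61 in set I and 14.6% ± 0.155 in set II. The Homer1 transcript with the highest mean, Homer1-210, differed by -0.08 ± 0.18 from set I (adjusted p = 0.993), and Homer1-203 by 0.01 ± 0.12. Homer1-206 lay above all 8 saline libraries without a call (0.50 ± 0.13 against set I, adjusted p = 0.817). The call of Homer1-204 against set I was lost whichever of the 8 libraries was left out (adjusted p from 0.0849 to 0.193).

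Sgk1-201 (ENSMUST00000020145, chr10:21994666-21999903, 12 exons, 2456 bases) was at 8.52, 10.9, 12.2 and 6.82 FPKM after haloperidol, against 1.87, 1.25, 0.929 and 1.00 in set I and 1.58, 2.43, 2.18 and 2.96 in set II. The difference of 2.22 ± 0.20 from set I (limma adjusted p = 0.0261) was larger than that of the gene sum, and the share of Sgk1-201 in all Sgk1 FPKM was 28.2% ± 3.83 (SD, n = 4) after haloperidol against 7.13% ± 3.17 in set I. The Sgk1 transcript with the highest mean, the 347-base Sgk1-209, differed by 0.79 ± 0.27 (adjusted p = 0.981). Inhba-202 (ENSMUST00000164993, chr13:16014475-16027211, 3 exons, 1529 bases) was at 5.42, 3.32, 5.27 and 7.14 FPKM against 0.843, 0.442, 0.488 and 0.401 in set I (2.00 ± 0.20, adjusted p = 0.0363), and Inhba-201 differed by -0.37 ± 0.21 (adjusted p = 0.981). Leaving out 1 library ended the call against set I in 7 of 8 fits for Sgk1-201 and for Inhba-202, and the call of Inhba-202 against all saline in 9 of 12.

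In Arc the transcripts were called less readily than the gene. Arc-201 and Arc-202, of 3055 and 3054 bases, were each called against all saline (limma adjusted p = 0.0133 and 0.00434) but not against set I (adjusted p = 0.307 and 0.118), although their sum was called in both. All 15 Dclk1 transcripts, of a kinase and microtubule-associated protein of neurons, were tested. Their differences ran from -0.28 to 0.41 against set I and from -0.36 to 0.45 against all saline, and none was called (smallest adjusted p = 0.981 and 0.559).

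**Figure D4:**
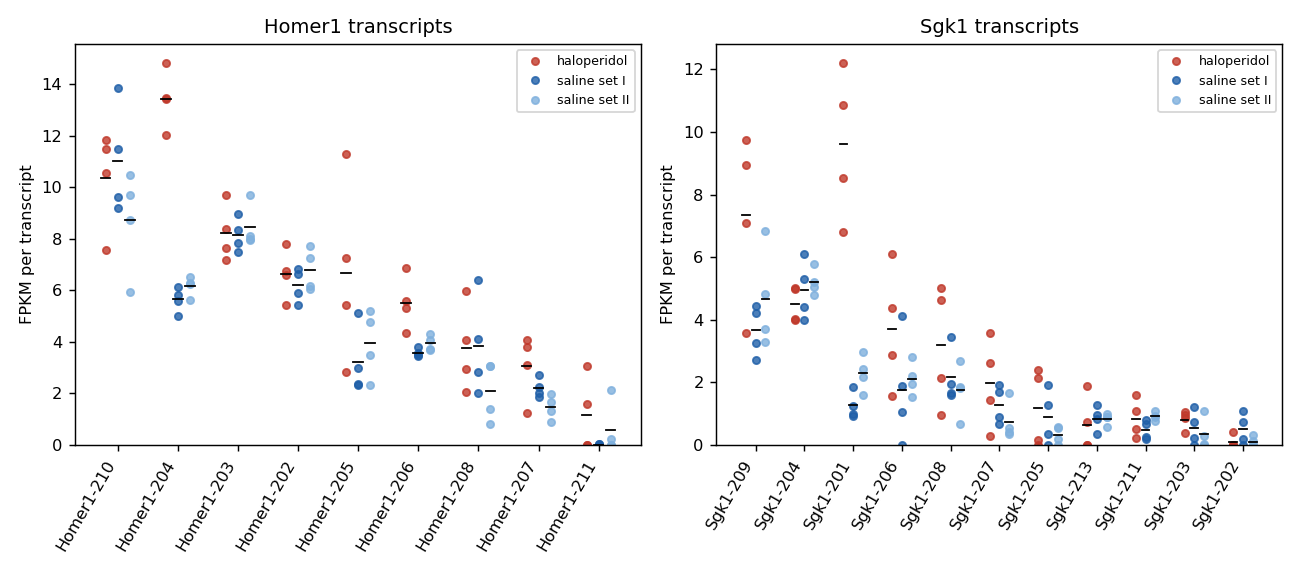
FPKM of the tested transcripts of Homer1 (left) and Sgk1 (right) on linear axes, ordered by mean level, with 1 point per library for haloperidol, saline set I and saline set II and a bar at each group mean. Homer1-204 and Sgk1-201 have all 4 haloperidol points above the 8 saline points, whereas Homer1-210, Homer1-203 and Sgk1-204 overlap.

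Haloperidol was next compared directly with risperidone and methamphetamine. The labels assign neither drug to a saline set, and their NAc libraries had 29280 to 29837 genes above 0, within the range of haloperidol and set I. Risperidone, a D2 and serotonin receptor antagonist given at 0.5 mg/kg, left 5 of 25787 genes lower than haloperidol did (0.0194%): Arc, Fos, Junb, Nr4a1 and Btg2. All 15 genes had a higher mean after haloperidol than after risperidone, each with an unadjusted limma p under 0.05 (1536 of all genes had one), and because they were chosen on the same haloperidol libraries this count is a description. Arc was at 25.6 ± 2.2 FPKM (SD, n = 4) after haloperidol, 11.0 ± 1.70 after risperidone and 7.19 ± 0.504 in set I (haloperidol minus risperidone 1.16 ± 0.11, adjusted p = 0.000823). Leaving out haloperidol replicate 3 or 4 reduced the 5 calls to 2, and risperidone replicate 3 or 4 to 3. Fos was at 10.6 ± 1.10 and 4.82 ± 1.15 (1.01 ± 0.14, adjusted p = 0.0191), and Nr4a1 differed by 0.86 ± 0.10 (adjusted p = 0.00497). The labels do not state a pairing by replicate number. Deviations of same-numbered libraries correlated at 0.1175 to 0.2094, and those of unlike numbers at up to 0.1122. With the replicate as a block Junb and Btg2 lost the call (limma adjusted p = 0.0697 each) and Inhba gained it (adjusted p = 0.0134). Sgk1 had the opposite order, at 42.2 ± 8.65 FPKM after risperidone, without a call (-0.31, adjusted p = 0.87). The doses differ, so these are differences between treatments as given.

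Methamphetamine, which releases dopamine and was given at 2 mg/kg, differed from haloperidol in 2 of 25787 genes (0.00776%). Fosb was at 6.53 ± 0.389 FPKM (SD, n = 4) after haloperidol and 2.94 ± 0.393 after methamphetamine (0.94 ± 0.12, limma adjusted p = 0.0132). Gm25845, the other gene called, was lower after haloperidol, at 1.29 ± 0.299 FPKM against 3.25 ± 0.358 (-0.90 ± 0.10, adjusted p = 0.00264). All 15 genes had the higher mean after haloperidol, and 11 had an unadjusted p under 0.05 (1985 of all genes did), which again describes genes chosen on these libraries. For Nr4a1 the means were close, at 12.5 and 12.2 FPKM (0.04 ± 0.10, adjusted p = 0.955), and Arc reached 18.5 ± 2.78 FPKM after methamphetamine (0.46, adjusted p = 0.405). Same-numbered libraries of these drugs deviated together in 3 of 4 pairs at a mean FPKM of at least 0.1 (correlation over 0.1) and in all 4 at a mean of at least 1. With the replicate as a block 205 genes were called, 30 higher and 175 lower after haloperidol, and of the 15 these were Fosb (adjusted p = 0.0197), Egr3 (0.0273), Junb (0.032) and Dusp5 (0.0488). Saline libraries enter these comparisons only through the shared spread, and a p above the threshold does not show that the drugs act alike.

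The PFCx served to ask whether the change after haloperidol depended on the region. The difference between haloperidol and saline set I was larger in the NAc than in the PFCx for all 15 genes. An unadjusted limma p under 0.05 was reached by 13 of them and by 1321 of all 30756 genes. These counts for the 15 are a description too, since the NAc libraries chose the genes. Fosb, 1 gene of 30756 (0.00325%), passed the adjusted test of that difference. Fosb differed by 1.90 in the NAc and by 0.76 ± 0.11 in the PFCx, where it was at 3.58 ± 0.572 FPKM (SD, n = 4) against 1.70 ± 0.298 (difference between regions 1.14 ± 0.14, adjusted p = 0.0212), and it lost the call in 10 of the 16 fits that left out 1 library. In the PFCx the differences of the 15 genes ran from 0.25 (Nr4a3) to 1.13 (Arc). Of 37238 genes tested there, 2 were called. Arc was the only 1 of the 15 among them (limma adjusted p = 0.0271). Among PFCx libraries, set I and haloperidol list as many genes above 0 as NAc set II does, so the regions do not match in this respect.

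**Figure D5:**
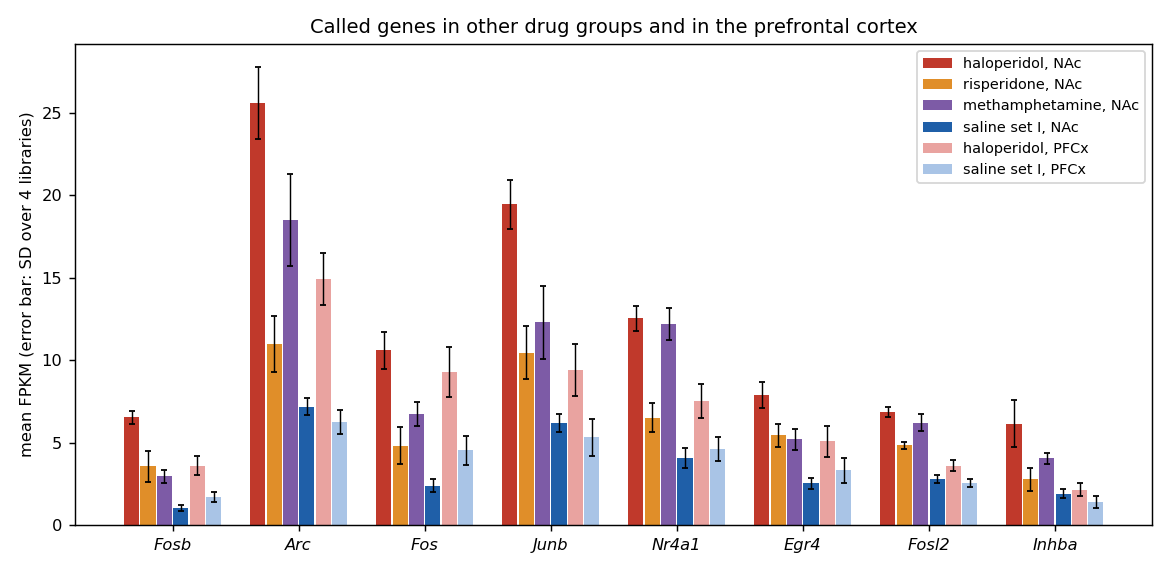
Mean FPKM of 8 of the called genes in the NAc after haloperidol, risperidone, methamphetamine and saline (set I), and in the PFCx after haloperidol and saline (set I). Bars start at 0 and error bars are the SD over 4 libraries. Haloperidol in the NAc has the highest mean in each of the 8 genes, and for Nr4a1 methamphetamine comes close to it.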

How the data were processed

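RNA-seq libraries of ribo-depleted total RNA were sequenced by the authors as single-end reads on an Ion PI chip, aligned to mm10 with TopHat2 2.0.1 and a second aligner, and quantified with Cufflinks 2.2.1. The deposited tables hold FPKM and signal (coverage) for 112714 annotated transcripts of 46686 gene names and no read counts. Aligned bases, estimated from coverage divided by FPKM over transcripts of at least 2000 bases and an FPKM of at least 5, were 2.09 to 2.83 Gb in the haloperidol libraries, 2.03 to 3.03 in set I and 2.42 to 3.26 in set II, so depth did not separate the groups.

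The FPKM values were summed per gene name and tested as log2(FPKM + 1) with limma 3.58.1 in R 4.3.3 (moderated test without trend, two-sided), on features whose FPKM averaged 0.1 or more in the fit, with Benjamini-Hochberg adjustment over all of them and a threshold of 0.05. The comparisons with other drugs used 16 NAc libraries, and those between regions 16 libraries of both. The members, gene lists and tests were chosen with earlier results of these data known. Genes were named when called in the same direction in both comparisons with all haloperidol libraries outside the saline range; 15 genes were chosen whatever their values, of which 1 is not reported here, and others are said to have been chosen after their values were seen or stand as list members. Transcripts were named when called in both comparisons or highest in mean. No pair of the 12 libraries was identical (correlations of 0.923 to 0.984 over genes).

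Groups share replicate numbers in the labels. Deviations of same-numbered haloperidol and risperidone libraries from their group means correlated at 0.2094, 0.1984, 0.1468 and 0.1175, so the block is given beside that result. For set I these were 0.276, 0.0872, 0.2463 and 0.0996, and for methamphetamine 0.1657, 0.0935, 0.1807 and 0.1015. Over genes with a mean FPKM of at least 1 they were 0.392, 0.1561, 0.351 and 0.1544 for set I and 0.1606 to 0.2711 for methamphetamine. The main tests of these comparisons have no block, and blocked values are given beside them. Alternatives covered the pseudocount, the filter, rescaling, the samples fitted, set II as a term and each library left out. The tests were checked on simulated data. Promoter sequences come from RefSeq (GRCm38.p6). Mianserin, venlafaxine and ketamine entered only the fit of all 32 NAc libraries.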

Additional observations from a re-analysis of the deposited data

Results flagged for a closer look

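Of 111 groups of 4 libraries examined for the genes named, 5 held a library whose gap to the nearest other exceeded Dixon's 95% critical value, where chance gives about 1 in 20. Arc was at 6.441 FPKM in saline set I replicate 2, against 7.317 to 7.496 in the other 3. Dusp1 was at 8.435 in haloperidol replicate 4, against 7.507 to 7.624. Nr4a3 was at 6.298 in haloperidol replicate 2, against 4.515 to 4.651. Pdyn was at 40.48 in saline set II replicate 4, against 33.65 to 34.14. Sgk1 was at 24.55 in haloperidol replicate 4, against 36.62 to 37.62.

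The difference between haloperidol and saline set I was larger in the NAc than in the PFCx for Fosb, by 1.139 on the log2(FPKM + 1) scale (limma adjusted p = 0.0212).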

How the results depend on the processing

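All 15 genes called in both comparisons stayed called against all saline in every setting run, and against set I 15 did when all 32 libraries, a higher filter, a mean-variance trend or no short transcripts were used, 14 with 75th percentile rescaling, 13 without the filter, 11 with the replicate block and 9 with a pseudocount of 0.1. Of all values recomputed, 1219 stayed on their side of the threshold, 136 fell below it and 10 rose past it. A further 2 changed sign by more than their SE. Uncalled values that changed sign by less are counted among the 1219. With set II as a term, the difference becomes that from set I, with the spread taken from both saline sets. Bdnf (-0.0829) and Tac1 (-0.0211) therefore changed sign from their values against all saline (0.0366 and 0.158). In that fit 28 genes were called.

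A pseudocount of 0.1 called 44 genes against all saline (34 higher, 10 lower), 22 transcripts against set I, 2 genes against risperidone and 1 against methamphetamine. Without the filter 19 transcripts were called against set I. Fitting all 32 NAc libraries, whose shared spread does not contain the difference between saline sets, called 1551 and 82 genes against all saline and set I, and 595 and 54 transcripts. With all saline of each tissue 6 genes differed between regions.

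With the replicate block, which treats equal numbers as pairs, 32 and 11 genes and 12 and 0 transcripts were called against all saline and set I, 0 between regions, and 205 against methamphetamine (30 higher, 175 lower). The cause of these shifts was not tested. Same-number correlations with set I were over 0.1 for 2 of 4 pairs at a mean FPKM of at least 0.1, where 3 of 4 haloperidol libraries correlated best with their own number, and for 4 of 4 at a mean of at least 1, where 4 of 4 did.

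Leaving out 1 library gave 31 to 71 genes against all saline (31 without haloperidol replicate 4, 35 without 3, 36 without 1, 41 without 2, 44 without set II replicate 3), 10 to 16 against set I (10 without set I replicate 3 or 4, 11 without haloperidol replicate 1 or 4 or set I replicate 1), 23 to 36 and 1 to 5 transcripts, 0 to 1 genes between regions, 2 to 8 against risperidone (2 without haloperidol replicate 3 or 4, 3 without risperidone replicate 3 or 4, 8 without risperidone replicate 1) and 1 to 4 against methamphetamine (1 without haloperidol replicate 2, 3 or 4 or methamphetamine replicate 2, 3 or 4, 4 without haloperidol replicate 1). Besides set I replicates 3 and 4, calls against set I were lost without haloperidol replicate 1 (Dusp5, Egr3, Inhba, Irs2, Nr4a3), 2 (Egr1, Egr3, Nr4a3), 3 (Dusp5, Egr3, Inhba, Nr4a3) and 4 (Dusp5, Egr1, Egr3, Irs2, Nr4a3) and set I replicate 1 (Egr1, Inhba, Irs2, Nr4a3) and 2 (Dusp5, Inhba). Fosb lost its difference between regions without NAc haloperidol replicate 2, 3 or 4, NAc set I replicate 1, 3 or 4, PFCx haloperidol replicate 2 or 3 or PFCx set I replicate 2 or 4. The tables hold no counts, so the precision of low FPKM is unknown.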
